A study of Homo sapiens with 6 samples.

Results

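The colony-stimulating factors and their receptors were examined in libraries labelled as paclitaxel (PTX)-resistant breast cancer stem-like cells with and without knockdown (KD) of the lncRNA LINC00115. The members were the 8 genes of the deposited count table whose symbol equals Csf1, Csf2, Csf3, Il34, Csf1r, Csf2ra, Csf2rb or Csf3r, out of 22989 genes in all. The study sequenced RNA of 3 libraries labelled LINC00115 KD and 3 labelled WT, both described as BCSC of the PTX-resistant line MDA-MB-231, a triple-negative breast cancer line of human origin. In the study BCSC are the cells with high aldehyde dehydrogenase (ALDH) activity, resistance to PTX was shared by both groups, and the KD was made with a short hairpin RNA. The KD libraries carry the descriptions sh115-1 to sh115-3, while the paper uses sh115-1 and sh115-2 as names of different hairpins, and the legend of its plot of the RNA-seq genes names sh115-2 alone, so the number in these descriptions is not taken here as that of a hairpin. The paper compares KD with a control hairpin, whereas the labels call the controls WT. No age, dose or time is given for the cells, and the labels do not say that the libraries came from separate cultures, so the p-values measure the spread between these libraries, which may be technical.

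Colony-stimulating factors are secreted cytokines that drive the survival, growth and maturation of myeloid cells. Csf1 (M-CSF) and Il34 both bind the receptor tyrosine kinase Csf1r and sustain macrophages. Csf2 (GM-CSF) binds the alpha chain Csf2ra together with the common beta chain Csf2rb, which signals through JAK2 and STAT5, and Csf3 (G-CSF) binds the homodimeric receptor Csf3r and drives neutrophil production. Tumor cells are a known source of these ligands, while the receptors are mostly found on myeloid cells.

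The libraries held 36979221 to 38799331 counts, and the 3 libraries of a group differed from each other by more than counting noise (3.94 to 7.96 times, chi-square per degree of freedom, against 224 to 246 times between the groups). Symbols in the table follow mouse nomenclature, with 4648 Gm names and 1129 Rik names, although the samples are labelled human and the builds named by the sources are human. The genes counted are therefore listed under a mouse annotation, and whether the cells were human as labelled is in doubt. The values hold for the libraries as labelled. Symbols are printed here as written, and no position or sequence is given for the members, since the reference used here is human. No gene listed carries the name LINC00115, and other names were not searched. The KD was therefore not checked in these counts, and each direction rests on the group labels. Of the genes that bear on the labelled cell type, Vim (126885 to 145878 counts) and Cd44 (32751 to 36274 counts) were abundant. Among the other mesenchymal genes listed, Fn1 (72342 to 104731 counts), Twist1 (1246 to 1661 counts) and Snai1 (971 to 2109 counts) were well counted. Zeb1 (23 to 64 counts) was low, and Snai2 (0 to 1 counts) and Cdh2 (0 to 2 counts) were at or near 0. The luminal gene Gata3 had 1985 to 3816 counts, beside 592 to 1061 for Erbb2, 24 to 105 for Esr1 and 0 to 3 for Pgr. Of the basal keratins, Krt5 had 0, 0 and 92 counts in WT and 0 in every KD library. Krt14 had 7, 30 and 192 counts in WT and 31, 28 and 19 in KD, so both were highest in WT replicate 3. The epithelial gene Cdh1 had 2, 1 and 3 counts in WT and 22, 30 and 31 in KD. The epithelial keratins Krt8 (17687 to 29602 counts) and Krt18 (4856 to 9369 counts) were abundant too, whereas the epithelial genes Epcam (0 to 5 counts) and Krt19 (1 to 7 counts) were at or near 0, as were the stem cell markers Aldh1a3 (0 to 4 counts) and Prom1 (0 to 3 counts), and Aldh1a1 had 8 to 52 counts. A list of lung and kidney genes was drawn up because earlier results of these data had them at high counts in the KD libraries. In KD 15 of these 16 genes exceeded all WT libraries, beside 37.8% of all genes tested, which the choice of the list largely fixed in advance. Their summed level was 103 to 113 normalized CPM (counts relative to the scaled total of a library) in KD against 10.5 to 10.9 in WT. Their part in the results below was not tested.

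The comparison of KD with WT asked how the levels of the ligands and receptors differed. Most ligands were higher in KD, with Csf1 up 1.77-fold, Csf3 up 1.57-fold and Il34 up 1.21-fold. The ligand Csf2 fell, to 0.517 of its WT level, and the common beta chain Csf2rb fell to 0.738 of its WT level. The receptor genes Csf1r and Csf2ra had at most 5 counts in any library, and Csf3r at most 8. These 3 genes did not pass the low-count filter and were not tested, which leaves 5 tested members.

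All 5 tested members passed an adjusted p-value of 0.05 in edgeR's quasi-likelihood test, with 3 higher and 2 lower in KD. Over all 13497 genes tested, 73.4% passed that threshold (36.7% higher and 36.7% lower), so that a share of this size was the usual one in these libraries. None of the 5 also passed a fold change of 2, the threshold of the study's methods, which together with the adjusted p was passed by 20.2% of all genes tested (10.2% higher and 9.98% lower). A gene past both thresholds is referred to as called. By unadjusted p under 0.05, edgeR gave the same 3 higher and 2 lower members, and DESeq2's Wald test called 1 member, Csf3r, which edgeR had not tested. The levels of KD and WT did not overlap for any of the 5 tested members, against 75.6% of all genes tested (37.8% with KD above WT and 37.8% with KD below WT). The median log2 fold change of the 5 tested members was 0.27, beside −0.01 over all genes tested.

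**Figure D1:**
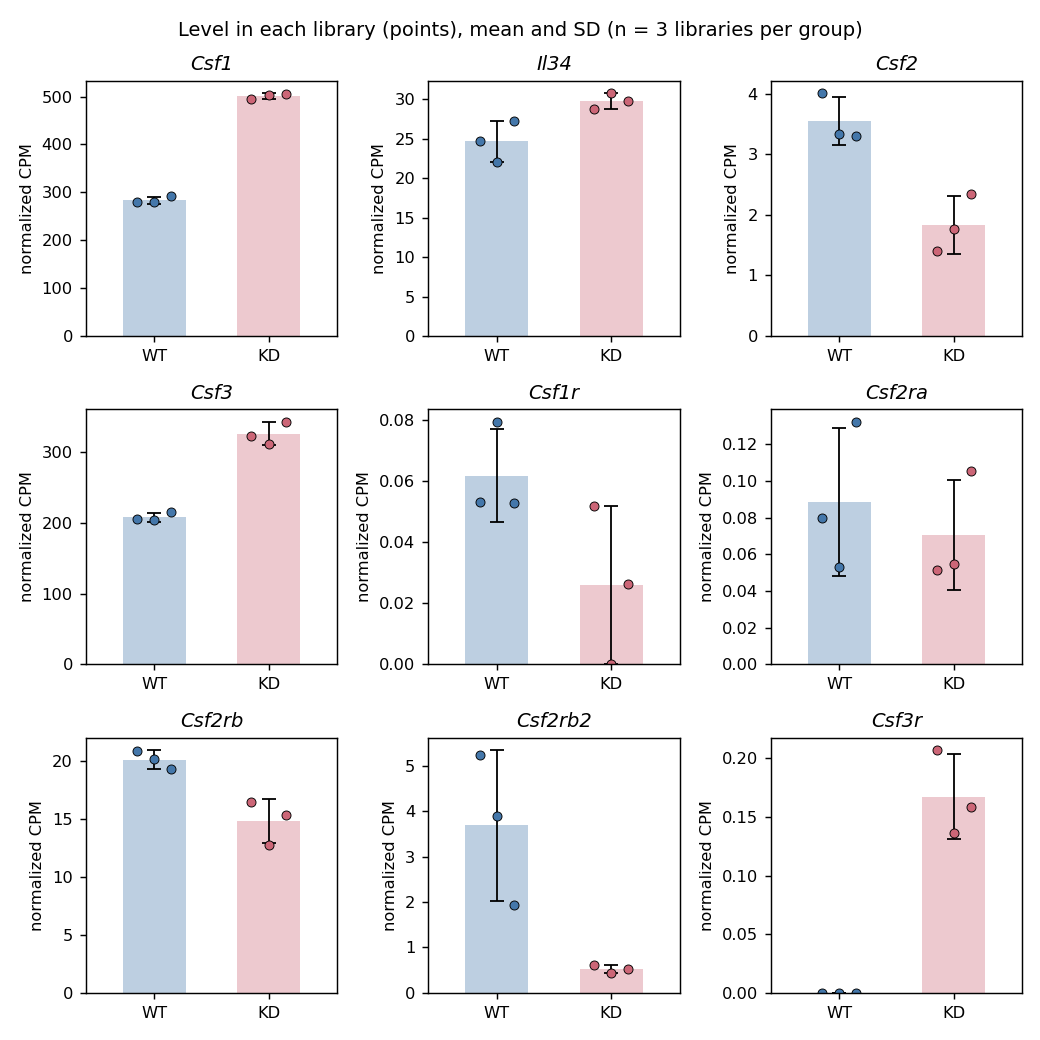
Level of each member and of Csf2rb2 in every library, in normalized CPM on axes that start at 0 and differ in scale between panels. Bars are means of 3 libraries, error bars are SD and points are libraries. For Csf1 and Csf3 all KD points lie well above all WT points, for Csf2, Csf2rb and Csf2rb2 below them, and the panels of Csf1r, Csf2ra and Csf3r rest on at most 8 counts.

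Among the ligands of Csf1r, Csf1 was at 279.9, 278.8 and 292.1 normalized CPM in the WT libraries and at 494.5, 504.1 and 505.1 in the KD libraries. All KD libraries lay above all WT libraries, and the gap between the groups was many times the spread within them. The mean rose from 284 ± 7.40 normalized CPM in WT to 501 ± 5.86 in KD (SD, n = 3 per group), and the log2 fold change was 0.82 (standard error 0.03, edgeR adjusted p = 1.18e-21, quasi-likelihood test). With 10525 to 19185 counts per library, counting alone gives a coefficient of variation of 0.967% in WT and 0.727% in KD, and 2.61% and 1.17% were observed. Its 95% interval, from 0.75 to 0.89 on the log2 scale, lay below a fold change of 2.

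Il34, the alternative Csf1r ligand, was at 24.7, 22.1 and 27.2 normalized CPM in WT and at 28.7, 30.8 and 29.8 in KD. The lowest KD library was close above the highest WT library, and the WT libraries spread more than the KD libraries (coefficient of variation 10.4% against 3.41%). The change was the smallest among the tested members, with a log2 fold change of 0.27 (95% interval 0.12 to 0.42, edgeR adjusted p = 0.00199, quasi-likelihood test), and it was 0.35 without WT replicate 3 and 0.20 without WT replicate 2.

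The balance between these ligands also differed. Within each library there were 11.3, 12.6 and 10.7 Csf1 counts per Il34 count in WT and 17.2, 16.4 and 16.9 in KD. This ratio does not depend on the scaling of libraries, and since the genes differ in length it was compared between libraries only. It was 1.46-fold higher in KD with no overlap between the groups (two-sided exact permutation test over libraries, p = 0.1, the smallest p that 3 against 3 libraries allow). This ratio and those below were chosen after the values were seen.

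Csf3, the ligand that drives granulocyte production, had 7664 to 12999 counts per library. It was at 204.8, 203 and 214.8 normalized CPM in WT and at 322.5, 310.4 and 342.3 in KD. All KD libraries again exceeded all WT libraries. Its mean rose from 208 ± 6.34 normalized CPM in WT to 325 ± 16.1 in KD (SD, n = 3 per group), and the log2 fold change was 0.65 (95% interval 0.57 to 0.72, edgeR adjusted p = 4.29e-17, quasi-likelihood test).

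Csf2 was the least abundant of the tested ligands by count, with 151, 126 and 125 counts in WT and 54, 65 and 89 in KD. These correspond to 4.01, 3.34 and 3.31 normalized CPM in WT and 1.40, 1.77 and 2.34 in KD. The groups did not overlap, and KD replicate 3 lay nearest to WT. The log2 fold change was −0.95 (standard error 0.25, edgeR adjusted p = 0.000878, quasi-likelihood test), and its 95% interval, from −1.45 to −0.45, spanned the fold change of 2. Without KD replicate 3 the change was −1.16 and was called (edgeR adjusted p = 0.000433), and without KD replicate 1 it was −0.78 (edgeR adjusted p = 0.00972). The KD libraries varied by 26.0% (coefficient of variation), above the 12.0% that counting alone gives, while the WT libraries varied by 11.2% with 8.64% from counting.

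Csf3 and Csf2, which are often described together as ligands released by tumor and stromal cells, moved in opposite directions. There were 51.1, 60.8 and 64.9 Csf3 counts per Csf2 count in the WT libraries and 231, 175 and 146 in the KD libraries. The mean ratio was 3.12-fold higher in KD, and the groups did not overlap (two-sided exact permutation test over libraries, p = 0.1, the smallest possible).

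**Figure D2:**
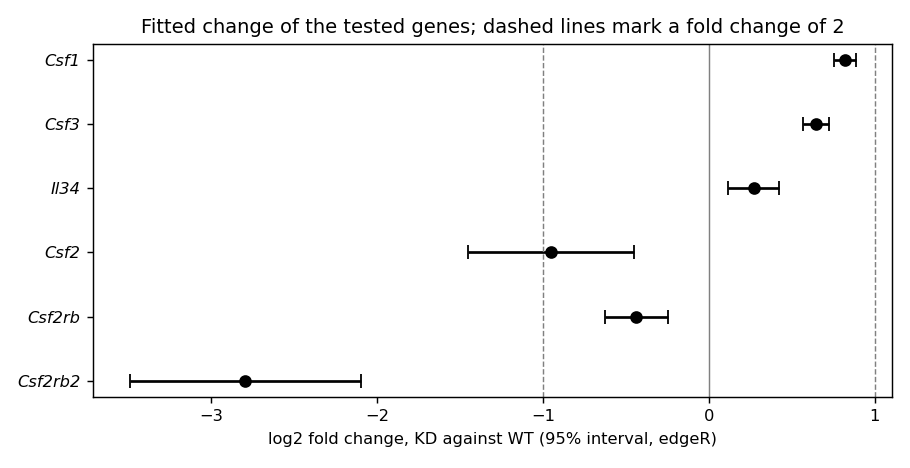
Log2 fold change of KD against WT for the 5 tested members and Csf2rb2, with 95% intervals from edgeR. Csf1, Csf3 and Il34 lie to the right of 0, Csf2 and Csf2rb to the left, the interval of Csf2 crosses the dashed line at a fold change of 2, and that of Csf2rb2 lies beyond it.

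Of the receptors, only Csf2rb was counted at a level that could be tested. This beta chain is shared by the receptors for GM-CSF, IL-3 and IL-5. It was at 20.9, 20.2 and 19.3 normalized CPM in WT and at 16.5, 12.8 and 15.3 in KD. The lowest WT library exceeded the highest KD library, and the KD libraries spread more, by 12.9% against 4.05% (coefficient of variation). The log2 fold change was −0.44 (95% interval −0.63 to −0.25, edgeR adjusted p = 8.84e-05, quasi-likelihood test).

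The alpha chain Csf2ra, which gives the GM-CSF receptor its ligand specificity, had 3, 2 and 5 counts in WT and 2, 2 and 4 in KD. The groups overlapped, and a difference was not detectable at this depth (two-sided exact permutation test over libraries, p = 0.6). Csf1r had 2, 3 and 2 counts in WT and 2, 0 and 1 in KD, in all 7 against 3. The exact 95% Poisson intervals of these sums, 2.81 to 14.4 and 0.619 to 8.77 counts, overlapped, and they cover counting error only. A two-sided exact permutation test on normalized CPM gave p = 0.1, the smallest possible. In counts, however, KD replicate 1 tied with WT replicates 1 and 3, so full separation of the groups rested on library scaling. No KD library and no WT library exceeded 3 counts of Csf1r, the limit that a count of 0 allows.

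Csf3r had 0 counts in every WT library and 8, 5 and 6 counts in the KD libraries. The groups did not overlap (two-sided exact permutation test over libraries, p = 0.1, the smallest possible). Against a floor of 3 counts per WT library, its mean of 0.167 normalized CPM in KD was at least 2.1-fold higher. Without the low-count filter it passed edgeR's test (adjusted p = 0.00652), and DESeq2's Wald test gave an adjusted p of 0.00864. The receptor thus rested on 19 counts in all, beside 11396 to 12999 counts of its ligand Csf3 in each KD library. In bulk RNA, fewer cells that express a gene and less RNA of it per cell cannot be told apart.

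Csf2rb2, which in mouse encodes a near copy of Csf2rb that serves as a second, IL-3-specific beta chain, fell most in this family. It had 197, 147 and 73 counts in WT and 24, 16 and 20 in KD. The WT libraries differed among themselves by up to 2.71-fold in normalized CPM, yet the lowest of them, WT replicate 3, was still well above every KD library. The log2 fold change was −2.79 (standard error 0.34, edgeR adjusted p = 6.71e-09, quasi-likelihood test), and it ranged from −3.10 to −2.46 when each replicate was left out. As a share of the counts of both beta chains, Csf2rb2 took 20%, 16.2% and 9.11% in the WT libraries and 3.63%, 3.31% and 3.33% in the KD libraries. Reads of such close copies may be divided between them in a way the sources used here do not describe, so the split between the genes is uncertain.

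The remaining genes around the common beta chain were few. Il3ra, the alpha chain of the IL-3 receptor, was at 0.823, 1.72 and 1.48 normalized CPM in WT and at 2.84, 2.45 and 2.50 in KD, with no overlap. Its log2 fold change of 0.95 (edgeR adjusted p = 0.00479, quasi-likelihood test) was called without WT replicate 2 (1.17), without WT replicate 3 (1.03) and without KD replicate 2 (1.00). Il5 had 1 count in a WT library and 1 in a KD library, and Il3 and Il5ra were not analysed here. Il3ra therefore moved in the opposite direction to both beta chains, Csf2rb and Csf2rb2. In the main fit Il3ra was not called, and the split of reads between the beta chains is uncertain.

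Markers of leukocytes, the cells known for these receptors, were set beside the receptor values. Of 27 listed markers other than Csf1r, 26 were in the table. Their summed level was 105 to 123 normalized CPM in WT and 206 to 234 in KD, of which Cd68, S100a8 and Cd14 made up a large part. The macrophage marker Cd68 had 1397 to 1925 counts and overlapped between the groups. Mrc1 had 226 to 334 counts in WT and 31 to 61 in KD, and Ly6c2 had 1 to 153 in WT and 76 to 795 in KD. The leukocyte markers Ptprc (CD45), Adgre1 (F4/80) and Cd3e were near 0, with 5 to 13, 0 to 6 and 0 counts. In KD 6 markers were above all WT libraries (Cd14, S100a8, S100a9, Lyz2, Lyz1 and Cd74) and 3 were below them (Cx3cr1, Mrc1 and Cpa3). Over all genes tested, 37.8% lay above and 37.8% below, so such counts were not shown to be particular to leukocyte markers. The bases differ, since only 13 of these markers passed the low-count filter, and Lyz1 did not. Cpa3, a mast cell protease, had 356, 325 and 68 counts in WT and 0 in every KD library. The part of such cells in the receptor values was not tested. Of 12 fibroblast and endothelial markers, 2 were above and 4 below all WT libraries in KD, again beside 37.8% in each direction over all genes tested. Of these 12, only 8 passed the low-count filter, and Kdr, among those above, did not. Their summed levels were 135 to 138 normalized CPM in KD and 176 to 195 in WT. The sum was carried by Pdgfra, at 6393 to 7115 counts in WT and 2770 to 2902 in KD, and the endothelial gene Cdh5 went the other way, from 5 to 14 counts in WT to 2136 to 2243 in KD.

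Binding partners and proteases of the pathway, listed together with Sirpa and Cd47, changed in both directions. Of 10 listed genes 8 were tested, of which 3 rose and 5 fell past the adjusted p threshold (73.4% passed it over all genes tested). In this list 1 gene was called, beside 20.2% over all genes tested (median log2 fold change −0.33 for the list). The called gene was Sirpa, an inhibitory receptor of myeloid cells, which fell from 31.1 ± 1.20 normalized CPM in WT to 15.3 ± 1.38 in KD (SD, n = 3 per group), and the log2 fold change was −1.02 (edgeR adjusted p = 1.69e-13). It was under a fold change of 2 without WT replicate 1 (−0.99) and without KD replicate 3 (−0.94). Outside the rule for named genes, and chosen after their values were seen, Adam17 and Adam10 are proteases that shed membrane proteins, with Adam17 known to cleave CSF-1 and its receptor. They had log2 fold changes of −0.45 (edgeR adjusted p = 9.97e-13) and −0.44 (edgeR adjusted p = 1.45e-12).

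The kinases, adaptors and STAT factors below the receptors also moved both ways, with 9 rising and 11 falling past the adjusted p threshold among 25 tested genes. Over all genes tested, 73.4% passed it. In this list 4 genes were called higher and 2 lower, beside 20.2% called over all genes tested (median log2 fold change −0.08 for the list). Among the called genes, Gab2, an adaptor that links the receptors to PI3K, rose by 1.29 on the log2 scale, and Tyk2, a Janus kinase, fell by 1.30. Fgr, a Src family kinase of myeloid cells, rested on 6 to 24 counts. The call of Fgr (edgeR adjusted p = 0.0393) did not hold in 8 of 12 alternatives. Among these were the fits without WT replicate 1, 2 or 3 and without KD replicate 2 or 3 (edgeR adjusted p of 0.0971, 0.0803, 0.123, 0.164 and 0.0512). Jak2 and the STAT5 genes, the usual route below the common beta chain, were not called, and their log2 fold changes were −0.59 for Jak2, −0.28 for Stat5a and 0.26 for Stat5b.

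Among the inhibitors of receptor signaling, 5 rose and 7 fell past the adjusted p threshold among 14 tested genes (73.4% passed it over all genes tested). In each direction 2 were called, beside 20.2% called in either direction over all genes tested (median log2 fold change −0.10 for the list). Cish, a SOCS family inhibitor that STAT5 is known to induce, had 183, 165 and 215 counts in WT and 21, 22 and 6 in KD. All KD libraries were far below all WT libraries, with a log2 fold change of −3.51 (standard error 0.31, edgeR adjusted p = 3.99e-12). Ptpn6 (SHP-1), a phosphatase that restrains these receptors, fell from 69.6 ± 2.44 normalized CPM in WT to 12.2 ± 0.988 in KD (SD, n = 3 per group), and the log2 fold change was −2.51 (edgeR adjusted p = 1.29e-26). Dok1, an adaptor that dampens kinase signaling, and Socs1, an inhibitor of Janus kinases, rose by 1.72 and 1.15 on the log2 scale.

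Of 9 tested genes known as targets of STAT5 or growth factors, 6 rose and 3 fell past the adjusted p threshold, and 2 were called higher and 1 lower (median log2 fold change 0.33). Beside these counts, 73.4% of all genes tested passed that threshold and 20.2% were called. Ccnd2, a D-type cyclin, had 3, 1 and 4 counts in WT and 25, 23 and 28 in KD. Since its WT counts were near the floor of 3 counts, it passed the low-count filter through the KD libraries only, and no fold is given for it. The survival gene Bcl2l1 rose from 137 ± 4.47 normalized CPM in WT to 274 ± 6.25 in KD (SD, n = 3 per group). Its log2 fold change of 1.01 (edgeR adjusted p = 1.27e-22) missed the fold change of 2 under upper quartile scaling (0.97), with library size only (0.99) and without WT replicate 1 (0.98). The kinase gene Pim2 fell by 1.87 on the log2 scale. The called genes of this list therefore did not share a direction.

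Upstream of the ligands, the genes likewise moved both ways. Of 26 tested genes that encode inducing cytokines, their receptors and transcription factors, 10 rose and 7 fell past the adjusted p threshold (73.4% passed it over all genes tested). Of these 26 genes, 2 were called higher and 3 lower (20.2% were called over all genes tested). Their median log2 fold change was 0.03, and it changed sign with upper quartile scaling (−0.01) and without WT replicate 2 (−0.01). Il1r1, the signaling receptor for IL-1, fell from 36.9 ± 3.12 normalized CPM in WT to 13.1 ± 1.03 in KD (SD, n = 3 per group), and the log2 fold change was −1.49 (edgeR adjusted p = 8.87e-18). Tnf had 24, 51 and 40 counts in WT and 18, 15 and 5 in KD, and its log2 fold change of −1.59 (edgeR adjusted p = 0.00585) was not called without WT replicate 2 (edgeR adjusted p = 0.0558). The T cell factor Nfatc2 had 18, 36 and 19 counts in WT and 57, 91 and 90 in KD (log2 fold change 1.70, edgeR adjusted p = 0.000154). Il17rc, a chain of the IL-17 receptor, rose by 1.01 on the log2 scale and missed the fold change of 2 under upper quartile scaling, with library size only, without WT replicate 2 and without KD replicate 1 (0.97 to 0.99). Il1rl1, the IL-33 receptor, was the fifth called gene, and its groups overlapped.

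RNA-binding proteins that shorten or extend the life of cytokine mRNAs changed by less than a fold change of 2. Of 11 tested genes 3 rose and 6 fell past the adjusted p threshold of edgeR (the same numbers by unadjusted p), and 0 were called by edgeR or DESeq2 (median log2 fold change −0.18). Over all genes tested by edgeR, 73.4% passed that threshold and 20.2% were called. Chosen after their values were seen, the decay factors Zfp36l2 and Zc3h12a (Regnase-1) had the log2 fold changes of largest size in this list, 0.69 (edgeR adjusted p = 8.67e-18) and −0.62 (edgeR adjusted p = 3.16e-13).

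**Figure D3:**
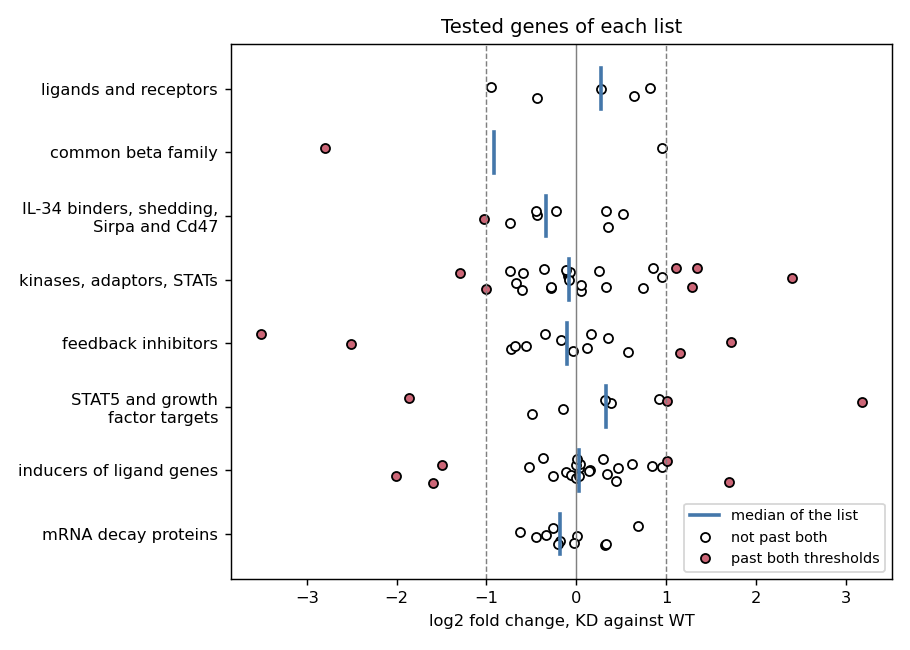
Log2 fold change of KD against WT for every tested gene of the ligand and receptor members and of 7 pathway lists. Filled points passed both thresholds, open points did not, and blue lines are list medians. Points of most lists lie on both sides of 0, all 5 ligand and receptor points lie between the dashed lines at a fold change of 2, and no mRNA decay gene lies outside them.

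**Figure D4:**
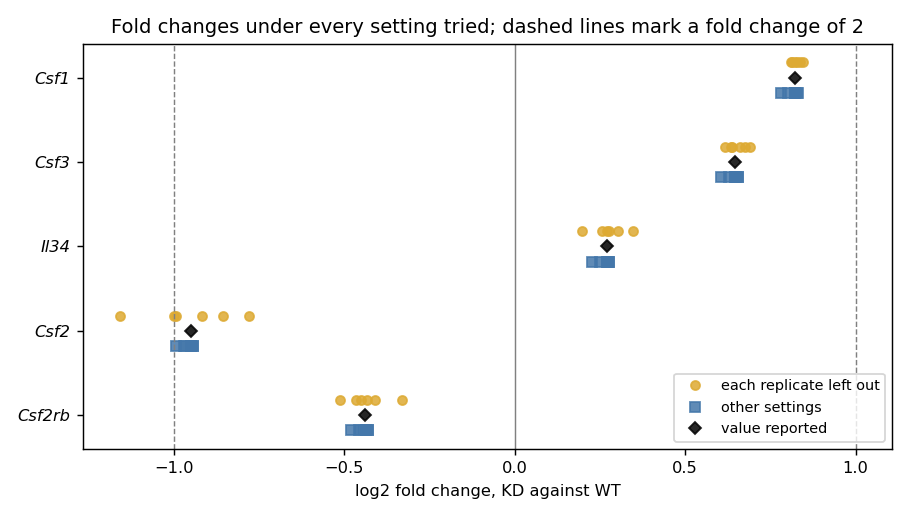
Log2 fold change of the 5 tested members under each setting tried, with the value reported as a diamond, the fits that leave out a replicate as circles and the other settings as squares. Each member stays on its side of 0, and only Csf2, without KD replicate 3 at −1.16, passes the dashed line at a fold change of 2.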

How the data were processed

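The authors trimmed adapters, mapped reads with HISAT2 at default settings and deposited whole-number read counts per gene without normalization, in 1 table. The paper's methods name hg19, whereas the submitters' processing notes name hg38, featureCounts and DESeq2. Annotation and strand setting are not given in the sources used here. Per the labels, 3 KD and 3 WT libraries were compared, with 0 columns unused.

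From these counts, edgeR 4.0.16 (R 4.3.3) removed low genes with filterByExpr, using a minimum count of 10 and a minimum total of 15. TMM scaling and a quasi-likelihood fit followed, with group as the only term, and p-values were adjusted over 13497 genes by the Benjamini-Hochberg method. Normalized CPM use TMM-scaled library totals, with factors from 0.9901 to 1.014. Standard errors were derived from the log2 fold change and the F statistic. A gene was called at an adjusted p under 0.05 and a fold change over 2. The scripts were tested on simulated data.

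Members and lists were chosen with earlier results of these data known. In each pathway list the genes named are up to 4 called genes of largest change that had no overlap between groups and reached 10 counts throughout the higher group, and all genes where 5 or fewer were tested. The genes of most similar pattern were to be named for called members, of which there were none. Libraries with the same replicate number did not deviate together (correlation of deviations from the group means −0.02 to 0.01 across genes), so numbers were not taken as pairs. Alternatives were other scalings and filters, each replicate left out, a replicate block, DESeq2 1.42.0 and no fold-change threshold. A gene counted in the lists is not reported here by name.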

Additional observations from a re-analysis of the deposited data

How the results depend on the processing

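Of 191 values recomputed under alternatives, 171 kept their side of the thresholds or their count within 1.5 times. Only the log2 fold changes of members could reverse, since counts of called genes have no direction, and 0 did. All 5 tested members kept their direction and an adjusted p under 0.05 in each of 13 fits by edgeR or DESeq2. Members called higher came to 1 without the low-count filter and 1 with DESeq2, in both cases Csf3r, which the other fits did not test. With each replicate left out, members called lower ranged from 0 to 1, the log2 fold change of Csf2 from −1.16 to −0.78, and called genes from 1 to 2 in the common beta family, from 0 to 1 among binding partners and proteases and from 3 to 5 among inducers. Inducers came to 3 with at least 10 counts in every sample, a filter that removes 2 of the called genes, Tnf and Il1rl1. Without a fold-change threshold, 2 members were lower and 3 higher, and the lists held 2 (common beta family), 8 (binding partners and proteases), 20 (signaling), 12 (inhibitors), 9 (STAT5 targets), 17 (inducers) and 9 (mRNA decay) genes. Over all genes tested, 73.4% passed at that setting. With the replicate number as a block, the log2 fold changes were 0.82 for Csf1, 0.65 for Csf3, 0.27 for Il34, −0.97 for Csf2 and −0.44 for Csf2rb, and no member's call changed, while Fgr was no longer called (edgeR adjusted p = 0.0736). The libraries share only a number. All genes' median log2 fold change moved by less than 0.1 under each scaling. Csf1r, Csf2ra and Csf3r gave no value in fits with a low-count filter. At this depth, 3 counts were 0.0776 to 0.0817 normalized CPM.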
